A study of Mus musculus with 4 samples.

Results

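Imprinted growth genes are expressed mainly from the copy inherited from 1 parent. Probe sets were taken where the platform annotation gave exactly 1 gene symbol, equal to one of 10 genes: Igf2, Igf2r, Grb10, Plagl1, Cdkn1c, Mest, Peg3, Dlk1, Meg3 and H19. The rule found 30 of 45137 probe sets, 20 on the MOE430A array and 10 on the MOE430B array, and these covered 9 of the 10 genes. H19 had no probe set of its own, since the probe set that names it also names Mir675, so H19 entered no count. RNA from E2f4 knockout neurospheres, spheres of neural progenitors grown in suspension, was compared with RNA from wild-type neurospheres. Both came from mouse forebrain at E12.5, labelled ventral telencephalon. There was 1 RNA sample of each genotype, each hybridised to both Affymetrix designs, which makes 4 arrays. The sources used here do not give the knockout allele, the strain, or the number of embryos or passages. With no replicates there are no p-values and no errors across samples, and nothing below separates genotype from other differences between these 2 cultures.

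Imprinted genes sit in clusters where DNA methylation set in the egg or the sperm marks the parental copies. Many of those expressed from the paternal copy promote growth of the embryo, and many of those expressed from the maternal copy restrain it. Several stay active in the developing brain, and Dlk1 and Cdkn1c are known to act in neural stem cells. The arrays do not distinguish the parental copies, so what follows is total RNA level and not imprinting.

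Signals are MAS5 values on a linear scale. Probe sets were called measured if both arrays of the design reached a floor, the median signal of that design, 735 on MOE430A and 942 on MOE430B. The log2 ratio is knockout over wild type within a design, centred on the median of the measured probe sets, and a gene's value is the mean over its measured probe sets. A positive ratio means a higher signal in the knockout sample. E2f4 itself read 1535 in the knockout sample and 1812 in the wild type, a log2 ratio of -0.24 on its 1 probe set, and since the sources used here do not place that probe set relative to the deletion, the genotype label was not checked by it. Xist, the RNA of X inactivation, had its brightest probe set at 1178 in the knockout sample and 8980 in the wild type. Another passed the floor only in the wild type, at 47 in the knockout sample and 1817 in the wild type. With 1 RNA sample per genotype, genotype and the sex make-up of the cultures cannot be told apart. The part of the Xist difference in the results below was not tested. As a measure of RNA integrity, the Gapdh signal at the 3' end over that at the 5' end lay between 0.799 and 0.898 on the knockout arrays and between 0.862 and 0.948 on the wild-type arrays. The neural label had markers behind it: 9 of 10 neural progenitor genes were measured, with Sox2 at 7720 and 7530 and Fabp7 at 27190 and 22783 in the knockout and wild-type samples. Embryonic globins of erythroid cells were bright too. In the same order, Hba-x read 18976 and 27119, and the highest Hbb-y signals were 69939 and 89828.

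Plagl1, Dlk1 and Meg3 lay farthest from 0, and their promoter windows are shown here because they carry the values described next. Each window runs from 250 bases before to 50 after a start site, 5′ to 3′, from RefSeq on GRCm38.p6. E2F proteins bind DNA, so 15 windows of 8 members were searched on both strands for TTTCCCGC, TTTGGCGC, TTTGCCGC and TTTCGCGC, letters of the E2F consensus. The Plagl1 window, chr10:13090582-13090881 on the plus strand, held 1 match in the reverse orientation, starting 90 bases before the start site and shown in capitals.
Plagl1: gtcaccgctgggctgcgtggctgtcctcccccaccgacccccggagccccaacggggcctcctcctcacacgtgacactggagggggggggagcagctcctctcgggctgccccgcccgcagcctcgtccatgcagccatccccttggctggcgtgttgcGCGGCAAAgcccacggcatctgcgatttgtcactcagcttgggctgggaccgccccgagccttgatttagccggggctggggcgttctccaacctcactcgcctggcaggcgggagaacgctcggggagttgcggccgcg
No other member window held these letters, those of Dlk1 and Meg3 included, and 2.26% of all 32851 windows held at least 1 match. A match describes letters and not a bound site. In the next pair of windows the capitals mark CpG dinucleotides, the bases at which imprints are methylated. These are the Dlk1 window at chr12:109452573-109452872 and the upstream Meg3 window at chr12:109540746-109541045, both on the plus strand.
Dlk1: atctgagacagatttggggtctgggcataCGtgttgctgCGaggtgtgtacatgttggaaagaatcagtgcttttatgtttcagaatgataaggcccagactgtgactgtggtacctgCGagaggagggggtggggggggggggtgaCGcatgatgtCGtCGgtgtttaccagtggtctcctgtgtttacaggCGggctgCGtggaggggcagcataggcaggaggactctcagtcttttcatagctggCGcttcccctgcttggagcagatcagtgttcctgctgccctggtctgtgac
Meg3: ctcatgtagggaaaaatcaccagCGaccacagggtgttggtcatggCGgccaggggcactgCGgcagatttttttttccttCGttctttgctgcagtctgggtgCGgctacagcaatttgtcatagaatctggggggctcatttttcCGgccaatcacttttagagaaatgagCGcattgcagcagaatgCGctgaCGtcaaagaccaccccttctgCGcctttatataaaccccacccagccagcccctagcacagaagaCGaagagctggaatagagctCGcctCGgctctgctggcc
The Dlk1 window held 9 CpG, the upstream Meg3 window 13 and the Plagl1 window 26, where the median over all windows was 7. The other Meg3 window, at chr12:109545148-109545447 and not printed, held 1.

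Of the 30 probe sets, 24 were measured, with signals from 887 to 27976. Another 2, both of Plagl1, passed the floor only in the knockout sample, and 4, of Igf2, Peg3 and Dlk1, were below it in both samples. Gene values ran from -0.56 for Dlk1 to 0.47 for Plagl1. There were 4 genes on the higher side and 5 on the lower side in the knockout sample, with a median log2 ratio of -0.03, beside -0.001 over all 10174 measured genes. None of the 9 genes differed by 1.5-fold or more, where 7.38% of all measured genes did, and none by 2-fold, where 1.01% did. No measured member probe set reached 2-fold either, where 1.64% of all measured probe sets did. The paternally expressed members had a median of 0.02 over 5 genes, and the maternally expressed members one of -0.04 over 4 genes; the first was below 0 under quantile normalization and lowess, at -0.03 and -0.01, and 0.35 with no floor. Probe sets of the same gene, over all 3957 genes with more than 1 measured, spread around their gene's mean with a pooled SD of 0.33 on the log2 scale, and 99 probe sets measured on both designs differed between designs with an SD of 0.31. Only Dlk1 and Plagl1 among the 9 lay outside that pooled SD, each on 1 measured probe set. The values of all 10174 measured genes had an SD of 0.32, close to that cut. The share of them outside it was not counted, so the 2 members are not marked out by it.

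**Figure D1:**
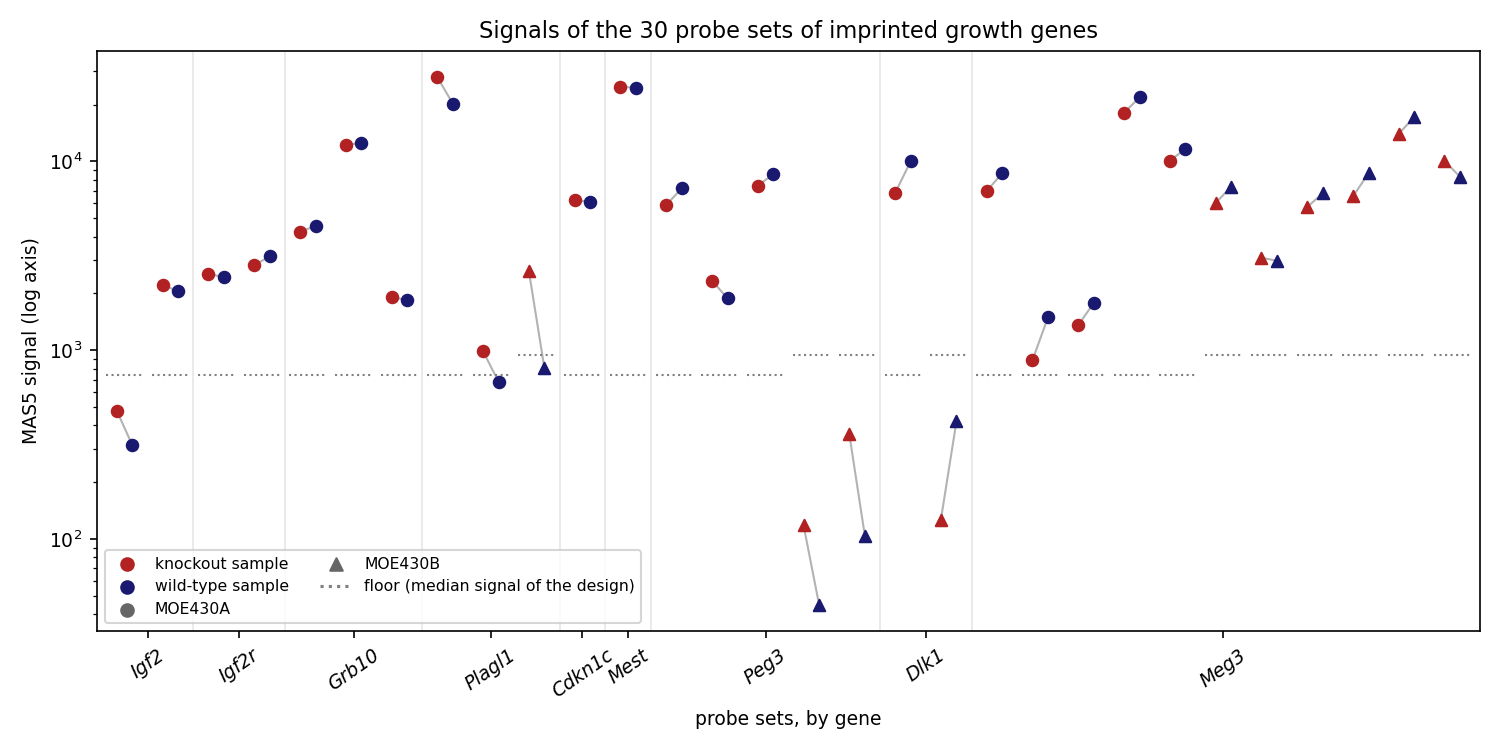
MAS5 signal on a log axis for the 30 probe sets, grouped by gene, with the knockout sample in red left of the wild-type sample in dark blue, circles for MOE430A and triangles for MOE430B. Dotted lines are the floors of 735 and 942; the pairs of Mest and Cdkn1c are level, the Plagl1 pairs are higher in the knockout sample, and those of Dlk1 and most of Meg3 are lower.

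Igf2, the paternally expressed fetal growth factor, was close to level. Its measured probe set read 2221 in the knockout sample and 2055 in the wild type, a log2 ratio of 0.12, and a second one read 478 and 313, below the floor in both. With no floor, which lets in that dim probe set, the value of Igf2 was 0.35. Igf2r, the maternally expressed receptor that takes IGF2 to the lysosome for breakdown, gave 2545 and 2823 in the knockout sample against 2435 and 3143 in the wild type. Its 2 probe sets fell on either side of 0, at 0.07 and -0.15, with a mean of -0.04. Grb10, an adaptor that binds and restrains the insulin and IGF1 receptors, is expressed from the maternal copy in most tissues and from the paternal copy in neurons. Its 3 probe sets read 12175, 4231 and 1918 in the knockout sample and 12592, 4562 and 1844 in the wild type. They spanned -0.11 to 0.06 and averaged -0.03 ± 0.08 (SD over 3 probe sets of 1 RNA sample), the tightest of the members with 3 or more.

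The wider IGF pathway was a list of 28 ligands, receptors, binding proteins and downstream genes. Of 18 measured genes, 6 were higher and 12 lower in the knockout sample (median -0.12), where 50.2% of all measured genes were lower. None reached 1.5-fold, where 7.38% of all measured genes did. Foxo1, a transcription factor that insulin and IGF signalling holds out of the nucleus, read 941 in the knockout sample and 1325 in the wild type, at -0.49. Igfbp5, a secreted IGF-binding protein, was at -0.38 over probe sets from -0.54 to -0.21, and Akt2, a kinase of the pathway, at 0.28 over probe sets from -0.16 to 0.76. Irs4, a docking protein of the receptors, passed the floor only in the wild type. It read 857 in the knockout sample and 1885 in the wild type, at least 2.00-fold lower. The share of all probe sets above the floor only in the wild type with such a bound was not counted. Of the receptors, named after their values were seen, Igf1r was at -0.15 over 4 probe sets from -0.38 to 0.18 and Insr at 0.21 over 2 probe sets. Igf1 had no measured probe set among 4. Among proteins that bind Igf2 mRNA, Igf2bp3 was at 0.10 over 6 probe sets and Igf2bp1 at -0.007 over 3 probe sets from -0.36 to 0.70.

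Plagl1, a paternally expressed zinc-finger transcription factor that can arrest the cell cycle and that regulates other imprinted genes, was the member with the highest value in the knockout sample. Its brightest probe set, an _x_at set, read 27976 in the knockout sample and 20193 in the wild type, 1.39-fold higher. A second on MOE430A read 988 and 679, passed the floor only in the knockout sample and was at least 1.34-fold higher. The third, on MOE430B, read 2626 in the knockout sample and 801 in the wild type, at least 2.79-fold higher. All 3 probe sets were on the higher side. However, 2 of them passed the floor through the knockout sample alone, which fixes their side in advance. The only one on MOE430B was among these. Of MOE430B probe sets of 1 gene that passed the floor only in the knockout sample, 9.78% had a bound of 2-fold or more. Among the 746 MOE430A probe sets with a geometric mean signal of at least 10000, the central 95% of log2 ratios ran from -0.33 to 0.39, and the 0.47 of the bright Plagl1 probe set lay outside it; these signal ranges were chosen after the values were seen. The suffix _x_at marks a probe set that may also bind other transcripts, and with the floor lowered to the 30th percentile, which lets in the 2 dimmer sets, the value of Plagl1 was 0.91.

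Genes next to Plagl1 on chromosome 10 were looked at after its value was seen. Within 1 Mb, 6 other genes were measured, 4 higher and 2 lower in the knockout sample (median 0.24). Sf3b5, a splicing factor subunit, was at 0.48 over probe sets of 0.26 and 0.70. Ltv1, of ribosome assembly, was at 0.44 on 1 probe set. Stx11, a syntaxin, was at 0.44, but its probe sets were split, at -0.17 and 1.05. Fuca2 and Pex3 were on the lower side at -0.34 and -0.26. The value of Plagl1 lay within the range of these neighbours, just below that of Sf3b5, and their part in it was not tested. With the floor at the 30th percentile Plagl1 was at 0.91, and the neighbours were not recomputed with that floor.

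Cdkn1c encodes p57, a maternally expressed inhibitor of cyclin-dependent kinases that limits progenitor division. It read 6226 in the knockout sample and 6134 in the wild type on its 1 probe set, a log2 ratio of 0.02. Kcnq1ot1, the paternally expressed antisense RNA of the same cluster, was at -0.03 over 3 probe sets from -0.20 to 0.26, chosen after its value was seen. Mest, a paternally expressed gene of a hydrolase-fold protein common in embryonic tissue, was among the brightest members and read 24873 and 24590, also at 0.02, which turned to -0.03 under quantile normalization and -0.01 under lowess. Neither differed between the samples by as much as the spread between probe sets. On the Mest side of chromosome 6, its imprinted neighbours Copg2 and Klf14 were at -0.23 and -0.94. Klf14, an intronless transcription factor gene, rested on 1 MOE430B probe set, with 2135 in the knockout sample and 4113 in the wild type.

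Peg3, a paternally expressed zinc-finger protein with roles in growth and maternal behaviour, gave discordant probe sets. On MOE430A its brighter probe sets read 7439 and 5893 in the knockout sample against 8576 and 7203 in the wild type, at -0.20 and -0.29. The dimmest of the 3 read 2339 and 1883, at 0.32. The mean was -0.06 ± 0.33 (SD over 3 probe sets of 1 RNA sample), as wide as the pooled spread of all genes. On MOE430B, 2 more probe sets read 118 and 358 in the knockout sample and 45 and 104 in the wild type, far below the floor of 942, and no fold was taken from them; with no floor they turn the value of Peg3 to 0.60, and a pseudocount turns it to 0.04.

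Dlk1, a paternally expressed membrane protein with EGF-like repeats related to Notch ligands, was the member farthest below 0. Its measured probe set, an _s_at set, read 6812 in the knockout sample and 10034 in the wild type, a log2 ratio of -0.56 or 1.47-fold lower. A second, on MOE430B, read 127 and 421, below the floor in both samples. Among 1020 MOE430A probe sets with a geometric mean signal between 5000 and 10000, the central 95% ran from -0.47 to 0.42, and the Dlk1 value lay outside it. Over all measured MOE430A probe sets that range was -0.60 to 0.59, and Dlk1 lay inside. With no floor, which lets in the dim MOE430B probe set, its value was -1.15.

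Meg3, the maternally expressed non-coding RNA next to Dlk1, was the best sampled member, with 11 probe sets, all measured. On MOE430A its 5 probe sets read 18125, 10118, 6981, 1358 and 887 in the knockout sample, against 21847, 11632, 8668, 1785 and 1497 in the wild type. Every one was lower in the knockout sample, from -0.75 to -0.20, with a mean of -0.38. On MOE430B the 6 probe sets read 14012, 10078, 6530, 6021, 5740 and 3094 in the knockout sample, against 17218, 8293, 8648, 7358, 6780 and 2980 in the wild type. There 4 were lower and 2 higher, from -0.40 to 0.28, with a mean of -0.15. Over both designs 9 of 11 were lower, and the gene's value was -0.25 ± 0.26 (SD over 11 probe sets of 1 RNA sample), or 1.19-fold lower. The probe sets share the same 2 RNA samples, and several were designed on the same cDNA, so they are no replicates. Of 198 genes with 5 or more measured probe sets, 41.4% had at least 80% of them on one side. The lowest, at -0.75 and near the floor in the knockout sample, was the 1 of 24 measured member probe sets that reached 1.5-fold; 5.35% of measured MOE430A probe sets and 10.5% of those of both designs reached that size.

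**Figure D2:**
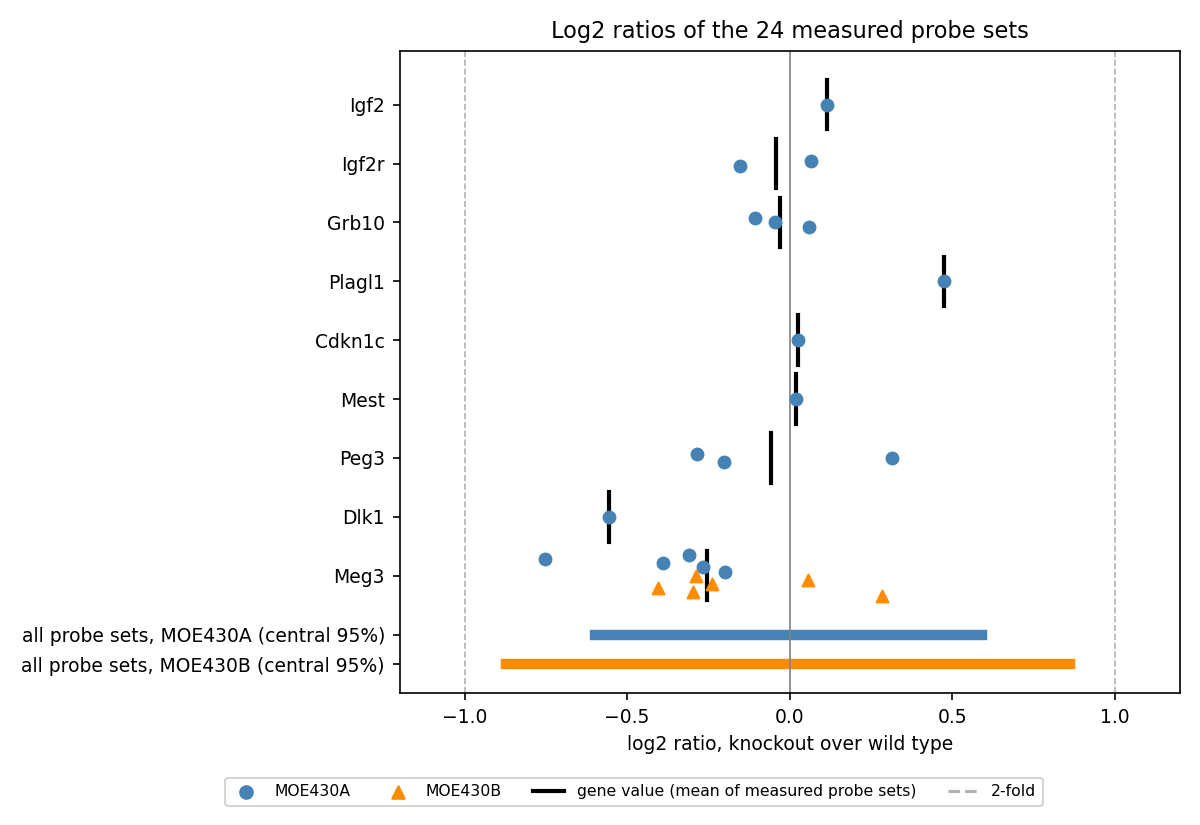
Log2 ratio of knockout over wild type for the 24 measured probe sets by gene, blue circles for MOE430A and orange triangles for MOE430B, with a black bar at each gene's mean. The bars at the bottom span the central 95% of all measured probe sets, -0.60 to 0.59 on MOE430A and -0.87 to 0.86 on MOE430B; Dlk1 at -0.56 and Plagl1 at 0.47 stand at the ends of the gene values.

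The cluster on chromosome 12 that holds Dlk1 and Meg3 continues with the maternally expressed non-coding RNAs Rian and Mirg. Mirg read 4670 and 4170 in the knockout sample and 6176 and 5116 in the wild type on its 2 probe sets, at -0.40 and -0.29. Rian was split, with 1099 in the knockout sample and 1402 in the wild type on MOE430A, at -0.35, and 3656 and 2613 on MOE430B, at 0.49. Rtl1 and Dio3 of the same cluster had no probe set. The 7 other genes measured within 1 Mb, chosen by position after the values of Dlk1 and Meg3 were seen, lay between -0.13 and 0.27, with 4 higher, 3 lower and a median of 0.03. By gene value, Dlk1, Meg3 and Mirg lay below all 7 of these neighbours, and Rian lay among them. Single probe sets overlapped: those of Meg3 ran from -0.75 to 0.28 and those of the neighbour Wars from -0.29 to 0.22.

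**Figure D3:**
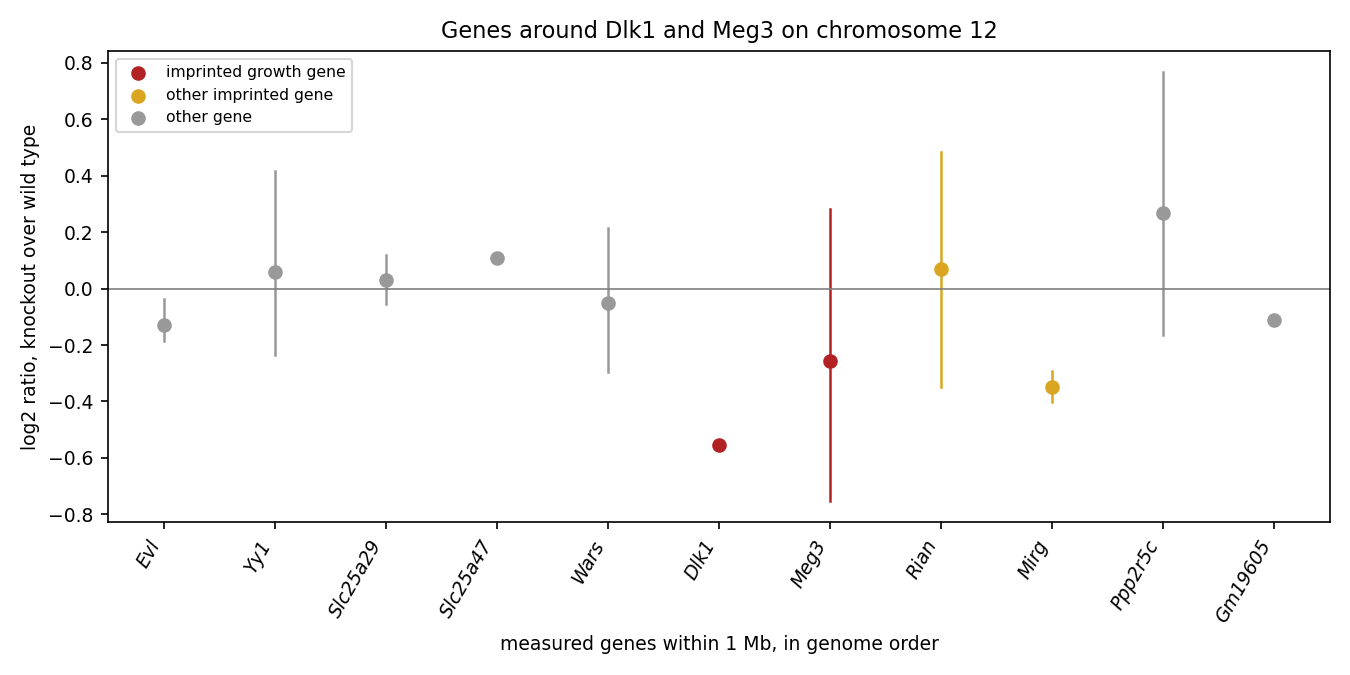
Log2 ratio of knockout over wild type for the 11 measured genes within 1 Mb of Dlk1 and Meg3, in genome order, points at the gene mean and lines from the lowest to the highest measured probe set. Dlk1 at -0.56, Mirg at -0.35 and Meg3 at -0.25 are the lowest gene values; the 7 neighbours outside the imprinted lists lie between -0.13 and 0.27.

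Imprinted genes outside the 10 members leaned to the lower side in the knockout sample. Of 48 further imprinted genes, 22 were measured, 4 higher and 18 lower, with a median of -0.11; over all measured genes, 50.2% were lower. Those expressed mainly from the paternal copy were 1 higher and 8 lower with a median of -0.10, and those expressed mainly from the maternal copy in at least 1 tissue were 3 higher and 10 lower with a median of -0.12. Klf14 was the 1 gene of the 22 at or past 1.5-fold, where 3.86% of measured genes were at least that much lower. Nnat, a small membrane proteolipid of the developing brain, read 83830 in the knockout sample and 106611 in the wild type, at -0.34. Ppp1r9a, the actin-binding protein neurabin, was at -0.36 over 3 probe sets from -0.57 to -0.23. Impact, a regulator of translation, was at -0.22 over 2 probe sets. Zdbf2 and Tspan32 were on the higher side at 0.22 and 0.24. Ndn, which encodes necdin, a growth suppressor of neurons, and Ube3a, a ubiquitin ligase, were chosen for naming once their values were known and had log2 ratios of -0.10 over 5 probe sets and 0.22 over 3 probe sets.

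Markers of cell types are given beside all measured genes, of which 50.2% were lower in the knockout sample. A difference of 1.5-fold or more, either way, was found in 7.38% of all measured genes. Of 8 neuron markers, 1 was higher and 7 were lower in the knockout sample; their median was -0.19, with summed measured signals of 156500 in the knockout sample and 181043 in the wild type. Nefl, a neurofilament, was at -0.45, Map2 at -0.39 and Elavl3 at -0.38. All 8 neuron values, from -0.45 to 0.03, lay inside the central 95% of all measured genes, -0.67 to 0.65. Of the marker genes named below, Sox1 and Laptm5 also lay inside that range, and Hbb-bh1 lay outside it. Dlk1, Meg3 and Nnat are among genes that neurons express, and the part of neuron number in their values was not tested; in bulk RNA, fewer cells of a type and less RNA per cell cannot be told apart. Of 12 markers of mesenchyme, meninges and pericytes, cells in which Igf2 and H19 are strongly expressed, 3 were measured, all higher, with a median of 0.29 and summed measured signals of 5004 and 4224 in the knockout and wild-type samples. These were Rgs5 at 0.29, Acta2 at 0.29 and Col1a2 at 0.10. Others of the list went the other way. Dcn passed the floor only in the wild type, at 667 in the knockout sample and 1232 in the wild type, at least 1.31-fold lower. Another Rgs5 probe set also passed it only there, at 713 and 952, at least 1.29-fold lower. Col1a1, Col3a1, Pdgfrb, Twist1 and Postn had no signal above the floor in either sample, and no probe set read exactly 0. Of 8 erythroid markers 5 were measured, 1 higher and 4 lower with a median of -0.33. Their summed measured signals were 217008 in the knockout sample and 281171 in the wild type. Those of the 9 measured neural progenitor markers were 162528 and 153141. Hbb-bh1, an embryonic globin, was at -0.88 over 3 probe sets from -0.94 to -0.84, Hba-x at -0.51 and Hbb-y at -0.33. Of 6 microglial markers 2 were measured. Laptm5 was at -0.63 on 1 probe set, with 928 in the knockout sample and 1441 in the wild type. Another Laptm5 probe set passed the floor only in the knockout sample, at 1178 and 883. Csf1r was at -0.25 over 3 probe sets from -0.64 to -0.04. Of 8 endothelial markers 3 were measured, Kdr at 0.38, Cldn5 at 0.15 and Egfl7 at -0.39. Flt1, a VEGF receptor, had no measured probe set among 4. Its brightest, on MOE430B, passed the floor only in the knockout sample. That one read 2226 in the knockout sample and 244 in the wild type, at least 2.36-fold higher. Of MOE430B probe sets of 1 gene that passed the floor only in the knockout sample, 9.78% had a bound of 2-fold or more. Of 6 choroid plexus markers 2 were measured, Kcnj13 at 0.36 and Clic6 at 0.001. Neural progenitor markers had a median of 0.04 over 9 genes, 6 higher and 3 lower. Among them the transcription factor Sox1 was at -0.61 over probe sets of -1.09 and -0.14, Pax6 at 0.44 over 2 probe sets and Fabp7 at 0.26. The part of these cell types in the values of the imprinted genes was not tested.

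Genes that keep or read imprints were near level. Of 11 measured genes in a list of 14, 5 were higher and 6 lower, with a median of -0.01. Zfp57, which protects imprints by recruiting Trim28, read 821 in the knockout sample and 1457 in the wild type, close to the floor, at -0.82. Tet3, an enzyme that oxidises methylated cytosine, read 2325 and 1562, at 0.58. Tet1 was at -0.31 from 3 probe sets between -0.98 and 0.45. Dnmt1, which copies DNA methylation at division, and Trim28, chosen for naming once their values were known, had log2 ratios of 0.005 and 0.04.

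**Figure D4:**
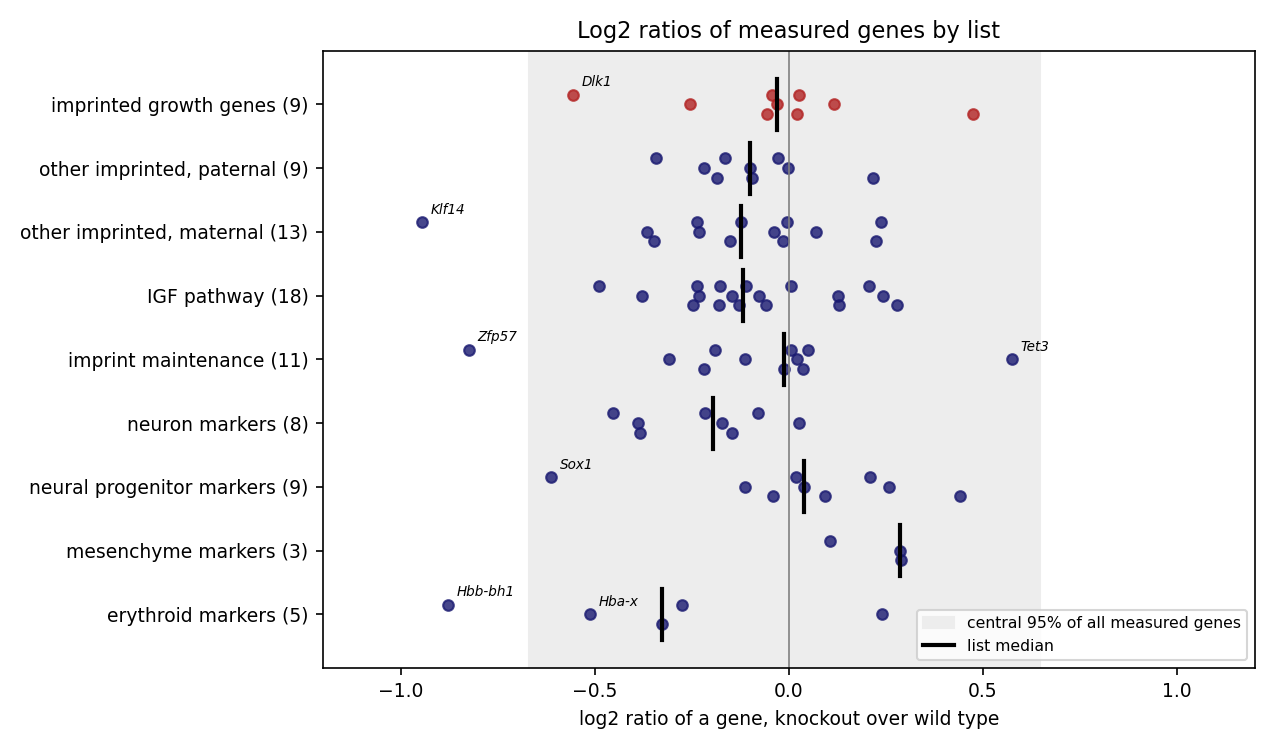
Log2 ratio of knockout over wild type for each measured gene in 9 lists, 1 point a gene, with the list median as a black bar and the number measured in brackets. The grey band is the central 95% of all 10174 measured genes, -0.67 to 0.65; all 9 imprinted growth genes lie in it, and the medians of the other imprinted genes, the IGF pathway and neuron markers lie below 0.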

How the data were processed

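Biotin-labelled cRNA of 2 RNA samples was hybridised to MOE430A and MOE430B arrays, per the labels. The deposited intensity values are MAS5 signals on a linear scale, per the submitters' processing notes, with no version, target or detection calls given in the sources used here; trimmed means of 1480 to 1482 show that the authors scaled the arrays alike. The deposited instrument records hold other fields, and per the file headers the knockout and wild-type arrays of each design shared a hybridisation day, with 1 day per design, so each within-design ratio is also within a day. After control probe sets were left out, log2 ratios were formed, floored and centred as the report gives. Gene names came from the platform annotation, and identifiers of 18029 of 18193 symbols were in a RefSeq table of GRCm38.p6, used for names and gene order. Members and lists were chosen with earlier results of these data known. All members and E2f4 are named, with up to 5 genes a list that differ 1.5-fold, or the 3 largest where fewer than 3 do, and bounds of 2-fold; any further gene was picked for naming with its value known. The steps were tested on simulated data. No test across samples was possible, and precision is limited by there being 4 arrays. Tools were Python 3.11.15, numpy 2.4.6, pandas 2.3.3, statsmodels 0.14.6 and matplotlib 3.10.9.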

Additional observations from a re-analysis of the deposited data

How the results depend on the processing

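No paired analysis was possible because there was 1 RNA sample per genotype. Member values and counts were recomputed under 11 alternatives, as were the counts and median of the other imprinted genes. The remaining lists were not recomputed. The alternatives were floors at the 30th and 70th percentiles, none, the floor added as a pseudocount, no centring, quantile normalization and lowess. The rest were the brightest probe set, no _x_at, _s_at or _a_at probe sets, and each design alone. Igf2 was positive in all 10 that gave a value, from 0.11 to 0.35. Meg3 stayed between -0.38 and -0.15 in all 11. Dlk1 was negative and Plagl1 positive in all 9 that gave a value, from -1.15 to -0.43 and from 0.44 to 0.91; the values farthest from 0 came with a low floor or none, where dim probe sets enter. Peg3 was positive in 2 of 10, up to 0.60 with no floor, and Mest negative in 2 of 10. The median over members ran from -0.15 to 0.01, being above 0 in 2 of 11. Member probe sets at least 2-fold different numbered 0 as reported, 1 with the floor at the 30th percentile, 4 with no floor and 1 with a pseudocount. Of 9 members, 5 were lower as reported, 4 with no floor or a pseudocount, and 6 under quantile normalization or lowess. Lower members numbered 3 without the _x_at, _s_at and _a_at probe sets, which leaves 6 genes. On MOE430B alone, where Meg3 was the 1 gene measured, 0 were higher and 1 lower. The median of the other imprinted genes, whose alternatives were chosen after seeing the data, stayed between -0.20 and -0.09, with 31 lower and 10 higher with no floor and 8 lower of 13 on MOE430B alone.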

Other observations

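The probe set that names both H19 and Mir675, a microRNA made from H19, read 2693 in the knockout sample and 2905 in the wild type, a log2 ratio of -0.11. The probe set that names both Igf2r and Airn, the paternally expressed antisense RNA of Igf2r, read 465 in the knockout sample and 271 in the wild type, below the floor of 942 in both. Neither entered any count, since each carries 2 gene names.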
